A study of Mus musculus with 8 samples.

Results

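The genes described here are the mouse histone genes that carry the Hist1h, Hist2h, Hist3h and Hist4h names, together with any gene of the newer H1f, H2ac, H2bc, H3c and H4c naming. The members were chosen by gene name from the non-control probes, and no measured value entered that choice, but the group was proposed with results of these arrays already known. The rule found 53 probes for 49 genes, of 36315 gene names on the array. There were 7 genes of class H1, 15 of H2A, 11 of H2B, 8 of H3 and 8 of H4. By cluster, 35 genes carried a Hist1 name, 9 a Hist2 name, 3 a Hist3 name and 1 a Hist4 name. The remaining gene was H1f0, a linker histone known to be made outside S phase, which the naming rule also caught. Testing required that, in some group, both arrays read the gene's probe well above background, and 42 of the 49 genes met this. The 7 genes that were not tested were H1f0, Hist1h1d, Hist1h1t, Hist1h2ac, Hist1h2al, Hist3h2ba and Hist3h2bb-ps, each well above background on 0 or 1 of the 8 arrays.

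The arrays measured RNA from mouse pre-B leukaemia lines. The line 70Z/3 is a pre-B lymphoblast line, and 18-81 is a pre-B line transformed by Abelson murine leukaemia virus. Each line received 10 nM of a synthetic duplex that supplies miR-125b, or of the control duplex miR-Neg, with a lipid reagent. Cells got fresh medium at 8 h and were harvested at 48 h. This gave 4 groups of 2 arrays, from 2 independent experiments, and replicate numbers 1 and 2 were taken to mark the experiments. The stated aim was to find targets of miR-125b. Each cell type was represented by 1 line, and all 4 groups were transfected, so no untreated cells were compared.

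Replication-dependent histone genes supply the proteins that package newly made DNA. Their transcription rises as cells enter S phase, and their mRNAs end in a conserved stem-loop bound by Slbp instead of a poly(A) tail. H2A, H2B, H3 and H4 form the core of the nucleosome, and H1 binds the DNA between nucleosomes. A labelling primer that anneals to poly(A) would copy such mRNAs poorly, and how the labelling treated them was not tested here.

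Levels are log2 of the scanner's processed intensity, set relative to the 75th percentile of each array, and a log2 difference of 1 is a 2-fold change. With 8 arrays, precision is limited throughout. The 75th percentile of intensity was 335.2 on replicate 2 of 70Z/3 with miR-Neg, the dimmest array, and 499.8 to 712.7 on the other 7. Per array, 38.0 to 45.1% of probes stood well above background, and 0 spots were saturated. Of 12 pre-B markers, 10 were tested, and all 10 exceeded background on both arrays in every group. Of 9 T-cell markers, 5 to 8 did so in a group, of 9 myeloid markers 3 to 5, of 5 erythroid markers 1 or 2 and of 6 stromal markers 2. With miR-125b in 70Z/3 the tested pre-B markers had a median of −0.36, the T-cell ones −0.72, the myeloid ones 0.35, the erythroid ones 0.60 and the stromal ones 2.26, each relative to all genes. The median level of the 2 stromal markers was 2.56 and 3.40 with miR-Neg and 4.90 and 5.33 with miR-125b in 70Z/3. Between the lines, 18-81 minus 70Z/3, these medians were −0.59 for pre-B, 0.39 for T-cell, −0.42 for myeloid, −4.36 for erythroid and −2.95 for stromal markers. The part of other cell types in the histone differences was not tested.

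The sequences that follow are the strand that the duplex supplies and the histone probes that differ in what they can tell apart. The mature miRNA is printed 5′ to 3′ with its seed, bases 2 to 8, in capitals, from RefSeq.
miR-125b-5p: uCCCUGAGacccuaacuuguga
A match to that seed, CTCAGGG on the strand of the probe, was present in 0 of the 53 histone probes and in 0.44% of all 55681 probes. A probe is only 60 bases long, so this says nothing of the rest of each transcript.

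Among the 53 probes, 5 held the whole consensus of the histone mRNA stem-loop on the probe strand (9.43%), against 7 of all 55681 probes (0.0126%). The stem-loop is the feature that replaces the poly(A) tail, so 30 bases of each probe are shown with it in capitals. Positions are those of the whole probe in mm9.
Hist1h3a (chr13:23853756-23853815, minus strand): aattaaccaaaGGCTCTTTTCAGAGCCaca
Hist1h3g (chr13:23627719-23627778, plus strand): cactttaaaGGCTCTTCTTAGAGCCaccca
Hist1h3i (chr13:21874784-21874843, minus strand): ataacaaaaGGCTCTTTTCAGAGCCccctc
Hist2h2aa1 (chr3:96049949-96050008, plus strand): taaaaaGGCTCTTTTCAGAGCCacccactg
Hist2h2bb (chr3:96074056-96074115, plus strand): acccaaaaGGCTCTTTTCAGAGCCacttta
The probe for Hist1h2be, the member with the largest difference between the lines, holds the poly(A) signal hexamer ATTAAA. That hexamer was in 2 of 53 histone probes (3.77%), near its share of all probes (3.95%). Whether it plays a part in that difference was not tested. The hexamer AATAAA was in 2 of 53 and in 10.1% of all.
Hist1h2be (chr13:23675610-23675669, minus strand): gtactgttcattATTAAAgcattcctgatt

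Other probes hold stretches that paralogs share. The H4 probes below are shown whole, with the longest run in common with the Hist1h4d probe in capitals.
Hist1h4d (chr13:23673515-23673574, plus strand): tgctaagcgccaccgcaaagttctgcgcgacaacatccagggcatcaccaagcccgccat
Hist1h4j (chr13:21826989-21827048, plus strand): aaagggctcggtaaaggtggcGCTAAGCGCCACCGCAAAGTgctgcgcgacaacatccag
Hist1h4c (chr13:23790223-23790282, minus strand): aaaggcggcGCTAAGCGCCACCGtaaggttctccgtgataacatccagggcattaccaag
The runs were 20 bases for Hist1h4j and 14 for Hist1h4c. For H2A the first 50 bases are shown, with the run shared with Hist1h2ah, the brightest member, in capitals.
Hist1h2ah (chr13:22127035-22127094, minus strand): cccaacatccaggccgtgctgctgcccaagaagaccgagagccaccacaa
Hist2h2aa2 (chr3:96049837-96049896, plus strand): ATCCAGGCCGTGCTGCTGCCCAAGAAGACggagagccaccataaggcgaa
Hist2h2ab (chr3:96024171-96024230, plus strand): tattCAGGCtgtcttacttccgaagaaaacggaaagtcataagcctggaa
Here the runs were 29 bases for Hist2h2aa2 and 5 for Hist2h2ab. Of the 53 probes, 16 shared a run of at least 20 bases with another histone probe, and for 14 the file listed transcripts of more than 1 gene. Signal of such a probe can come from several paralogs, so the values of such members, among them Hist1h2ah, Hist1h2bm, Hist1h3d and Hist1h4k with 4 listed genes each, are uncertain as to which gene they report.

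Promoters of the group were matched in RefSeq (GRCm38.p6) for 42 of the 49 genes, giving 43 promoters that run from 250 bases before to 50 bases after the gene start. CCAAT, on either strand, was present in 37 of 43 histone promoters (86.0%) and in 37.4% of all 32851 promoters. TATAAA, on either strand, was present in 25 (58.1%) against 13.6% of all. With TATAA in its place, the shares were 76.7% and 24.9%. The octamer ATTTGCAT, or its reverse complement, was in 13 histone promoters, all of class H2A (7 of 14) or H2B (6 of 9), and in 1.74% of all promoters. H4 promoters held CCAAT in 2 of 7. A match is only a description of letters in this window. The 250 bases before the start of Hist1h1b, the brightest H1 member, are shown with CCAAT, its reverse complement and TATAAA in capitals.
Hist1h1b promoter (chr13:21780626-21780875, minus strand, GRCm38.p6): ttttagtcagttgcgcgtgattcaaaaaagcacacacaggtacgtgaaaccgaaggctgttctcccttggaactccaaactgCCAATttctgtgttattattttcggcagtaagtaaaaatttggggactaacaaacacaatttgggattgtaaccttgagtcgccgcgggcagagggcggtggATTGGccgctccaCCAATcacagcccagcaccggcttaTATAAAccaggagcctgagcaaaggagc

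In 70Z/3, most histone genes read below the median of all genes for miR-125b against miR-Neg, but 0 passed the test. The median of the 42 members was −0.72, against −0.13 for all 18777 genes tested, a gap of −0.59. The gap was −0.82 in the first replicate pair and −0.55 in the second. It was −0.80 over the 12 members whose probes list several genes and −0.47 over the 30 whose probes list 1. The counts below take such probes as separate genes. Below the all-gene median were 34 of the 42 members (81.0%; 50% of all genes are). In both pairs 32 had a value below 0 (76.2%, against 43.9% of all genes) and 1 a value above 0 (2.38%, against 24.1%). Arrays of the groups did not overlap for 12 members that were lower (28.6%, against 22.6%) and 0 that were higher (against 15%). Limma with Benjamini-Hochberg adjustment at 0.05 called 0 members, as it called 0 of 18777 genes (0.0%) in either direction. At an unadjusted p under 0.05, 10 members were lower (23.8%), against 3.1% of all genes, and 0 were higher, against 2.81%. A value of 2-fold lower or more was found in 17 members (40.5%), against 2.64% of all genes, and 2-fold higher or more in 0, against 3.74%. With the replicate number as a block, 29 members were lower at an unadjusted p under 0.05 (69.0%, against 14.5% of all genes). On the other side 0 were higher (against 6.37%), and 0 passed after adjustment. Without that block, as in the main test, the SE, the p-values and the overlap of groups carry the spread between experiments.

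Single arrays weigh heavily on that gap. Of the 42 members, 32 had their highest value on replicate 2 of 70Z/3 with miR-Neg (76.2%, against 29.6% of all genes), which was also the dimmest array. Without that array the gap was −0.26, and without replicate 1 of 70Z/3 with miR-125b it was −0.20. Without replicate 1 of miR-Neg it was −1.04, and without replicate 2 of miR-125b it was −1.22. The part of array brightness in the gap was not tested. After quantile normalization, which gives every array the same distribution, the gap was −0.53. In bulk RNA, fewer cells in S phase and less histone RNA per cell cannot be told apart.

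**Figure D1:**
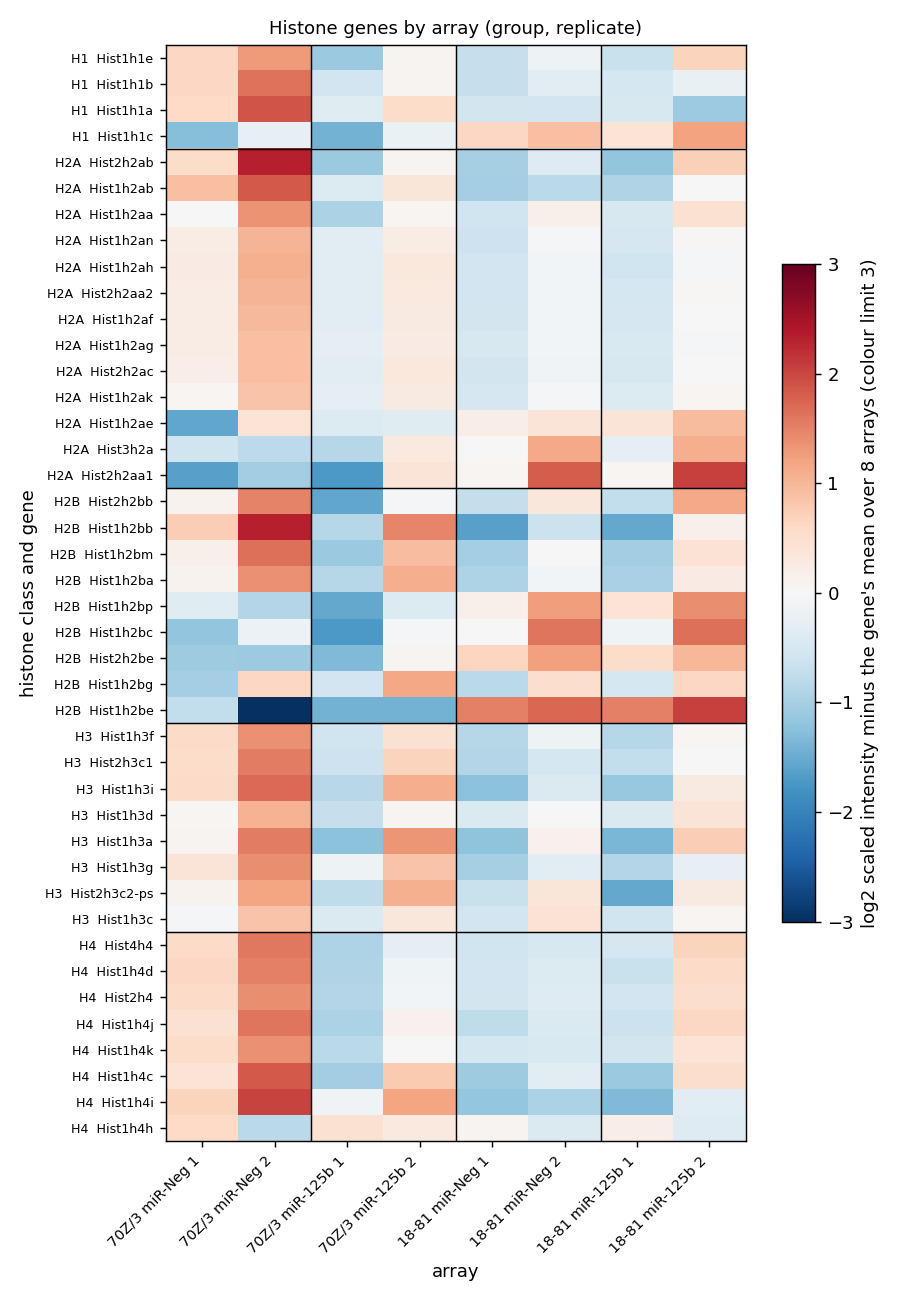
Log2 scaled intensity of the 42 tested histone genes (rows, by class) on the 8 arrays (columns, by group and replicate), each gene relative to its own mean. Red is higher and blue lower, and 32 of the 42 genes have their highest value on replicate 2 of 70Z/3 with miR-Neg.

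Linker histones of class H1 compact the chromatin fibre, and 3 of the 4 tested had values below −1 with miR-125b in 70Z/3, with 0 past the test. Hist1h1b read 6.39 and 7.40 with miR-Neg and 5.18 and 5.84 with miR-125b. The arrays of the groups did not overlap, and the difference was −1.39 (SE 0.41, limma adjusted p = 0.752). Hist1h1e read 6.07 and 6.73 with miR-Neg, and 4.34 and 5.54 with miR-125b, again without overlap. Its difference was −1.46 (SE 0.56, limma adjusted p = 0.77). Hist1h1a read 3.47 and 4.76 with miR-Neg and 2.51 and 3.41 with miR-125b, a difference of −1.16 (SE 0.49, limma adjusted p = 0.77). Hist1h1c stood apart from these: it read −0.93 and 0.09 with miR-Neg and −1.09 and 0.13 with miR-125b. Its groups overlapped and its difference was −0.06 (SE 0.52), with the sign turned (0.06) under scaling to the array median.

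H4, a core histone with almost the same protein from every gene, had the lowest class median in 70Z/3, −1.27 relative to all genes. The pairs gave −1.35 and −1.22, and leaving out 1 array gave −1.71 to −0.85. The H1 median was −1.14, and −0.69 without replicate 2 of miR-Neg and −0.71 without replicate 1 of miR-125b. Hist4h4 read 5.87 and 6.87 with miR-Neg and 4.36 and 4.99 with miR-125b. The groups did not overlap, and the difference was −1.69 (SE 0.49, limma adjusted p = 0.752). Hist1h4d read 7.53 and 8.43 with miR-Neg and 6.01 and 6.79 with miR-125b, a difference of −1.58 (SE 0.50, limma adjusted p = 0.752). Hist1h4k, the brightest H4 member, differed by −1.36 (SE 0.45), and its second probe by −1.61. The file lists 4 genes for the Hist1h4k probe and 3 for that of Hist1h4d, so the H4 values can hold signal of the same paralogs. Hist1h4h was the exception: it read −1.84 and −3.26 with miR-Neg and −2.0 and −2.16 with miR-125b, with overlap, and a difference of 0.47 (SE 0.48), which was −0.24 without replicate 2 of miR-Neg.

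The medians of the other core classes lay nearer to that of all genes than those of H4 and H1. For H2A, which pairs with H2B, the class median was −0.49 relative to all genes, and the pairs gave −0.46 and −0.53. It was −0.23 without replicate 2 of miR-Neg, −0.25 without replicate 1 of miR-125b and −0.74 without replicate 1 of miR-Neg. Its brightest member, Hist1h2ah, read 10.26 and 11.08 with miR-Neg and 9.67 and 10.32 with miR-125b. The groups overlapped by a small margin, and the difference was −0.67 (SE 0.40, limma adjusted p = 0.77). Within the pairs Hist1h2ah gave −0.59 and −0.76. That probe reached 62.3 to 93.1% of the scanner's saturation value, where differences can be compressed. Leaving out the 9 members whose probes came nearest to saturation (over 1/4 of that value), an alternative added after seeing the data, moved the gap of the whole group from −0.59 to −0.73. The lowest single value was that of Hist2h2ab, chosen after its values were seen. It read −1.53 and 0.25 with miR-Neg and −3.18 and −1.99 with miR-125b, a difference of −1.94 (SE 0.78, limma adjusted p = 0.77).

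H3, which carries many of the chromatin marks, had a class median of −0.68 relative to all genes, and its 8 members were all on that side. The pairs gave −0.94 and −0.37. Without replicate 1 of miR-125b the median was 0.01, without replicate 2 of miR-Neg −0.20, without replicate 1 of miR-Neg −1.13 and without replicate 2 of miR-125b −1.29. Hist1h3d, its brightest member, read 6.89 and 7.86 with miR-Neg and 6.12 and 6.90 with miR-125b, a difference of −0.87 (SE 0.46, limma adjusted p = 0.77). The groups overlapped only at their nearest arrays, and within the pairs Hist1h3d gave −0.77 and −0.96. H2B was mixed, with a median of −0.23 and pairs of −0.87 and 0.32. Its median was 0.43 without replicate 1 and −0.85 without replicate 2 of miR-125b, and −0.45 without replicate 1 of miR-Neg. Hist1h2bm, its brightest member, read 4.53 and 6.04 with miR-Neg and 3.27 and 5.32 with miR-125b, with overlap and a difference of −0.99 (SE 0.83). Hist1h2be and Hist2h2be differed by 0.56 (SE 0.69) and 0.45 (SE 0.47), and the sign of Hist1h2be turned (−0.14) with normexp background correction and (−0.67) without replicate 2 of miR-Neg.

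In 18-81, 0 histone genes passed the test for miR-125b. The median of the 42 members was 0.16, against 0.03 for all genes, a gap of 0.13, with −0.01 in the first pair and 0.25 in the second. Without replicate 2 of 18-81 with miR-125b the gap was −0.19, without replicate 1 of the same group 0.54, without replicate 1 of miR-Neg −0.08 and without replicate 2 of miR-Neg 0.32. Values were above 0 in both pairs for 21 members (against 34% of all genes) and below 0 in both for 4 (9.52%, against 18.3%). Groups did not overlap for 0 members, against 8.47% of all genes higher and 4.76% lower, and 0 members differed 2-fold, against 0.703 and 0.921%. Limma called 0 members and 0 of 18777 genes (0.0%), and 0 members had an unadjusted p under 0.05, against 0.623% of all genes higher and 0.596% lower. The replicate block left 0 such members too, against 1.77 and 1.08%. H4 showed the widest spread between pairs, −0.07 and 0.87 relative to all genes. Hist4h4 read 4.69 and 4.81 with miR-Neg and 4.79 and 5.96 with miR-125b. The higher array of miR-125b was that of replicate 2, the groups overlapped, and the difference was 0.63 (SE 0.49, limma adjusted p = 1.0). Hist1h4j differed by 0.59 (SE 0.57) and Hist1h2ab by 0.46 (SE 0.46). Hist2h3c2-ps, Hist1h1a and Hist1h3c had the smallest p among members that were lower, at −0.48 (SE 0.79), −0.22 (SE 0.49) and −0.19 (SE 0.50).

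**Figure D2:**
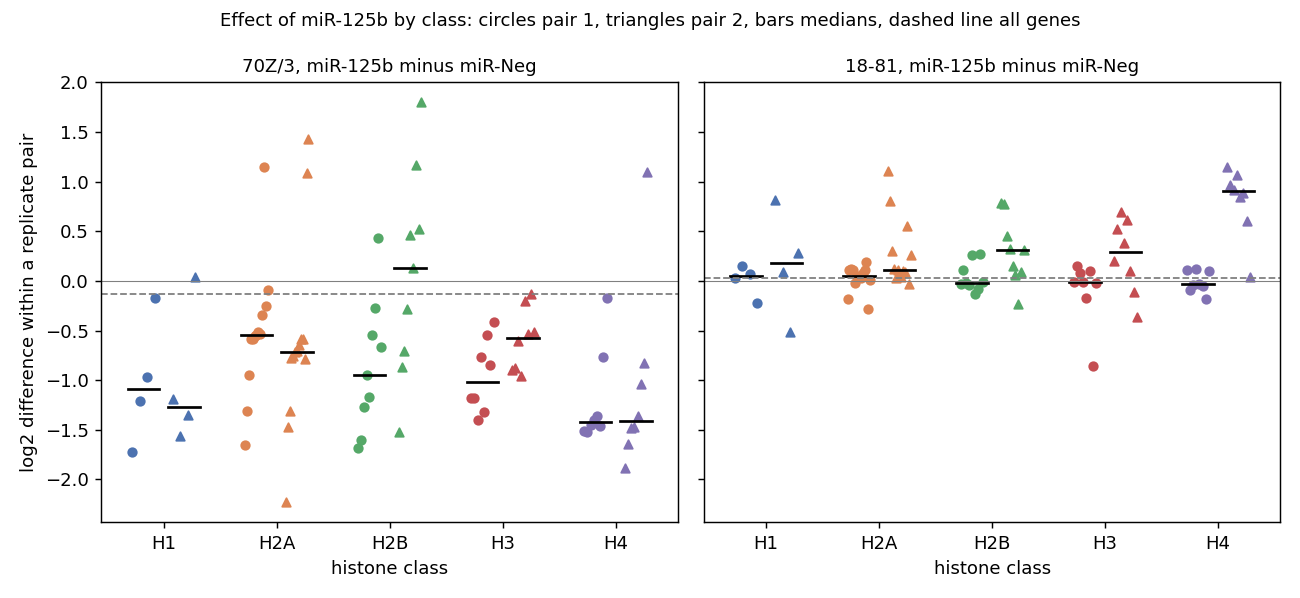
Log2 difference, miR-125b minus miR-Neg, within each replicate pair for the 42 tested histone genes by class, in 70Z/3 (left) and 18-81 (right). Circles are pair 1, triangles pair 2, black bars class medians and the dashed line the median of all genes. In 70Z/3 the H4 medians lie lowest in both pairs, and in 18-81 the H4 median is −0.07 in pair 1 and 0.87 in pair 2, relative to all genes.

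The difference between these effects, 18-81 minus 70Z/3, was tested as an interaction. The median of the members was 0.87, against 0.17 for all genes. Limma called 0 members and 0 of 18777 genes (0.0%). At an unadjusted p under 0.05, 8 members were higher (19.0%, against 1.99% of all genes) and 0 lower (against 1.29%), and with the replicate number as a block 24 were higher (57.1%, against 9.44%) and 0 lower (against 3.61%). A 2-fold higher difference was found in 19 members (45.2%, against 5.2%) and a 2-fold lower one in 0 (against 5.5%). The gap of 0.70 to all genes was 0.27 without replicate 1 and 1.18 without replicate 2 of 70Z/3 with miR-125b. It was 1.16 without replicate 1 and 0.32 without replicate 2 of 70Z/3 with miR-Neg, and 0.41 without replicate 1 of 18-81 with miR-Neg and 0.37 without replicate 2 of 18-81 with miR-125b. Hist4h4 gave 2.32 (SE 0.69, limma adjusted p = 0.933), Hist1h4d 2.02 (SE 0.71) and Hist2h4 1.91 (SE 0.67). Hist2h2be, Hist3h2a and Hist1h4h, at −0.61 (SE 0.66), −0.57 (SE 0.84) and −0.40 (SE 0.68), had the smallest p on the other side. Among H1 members the difference was 1.88 (SE 0.79) for Hist1h1e, 1.51 (SE 0.58) for Hist1h1b, 0.94 (SE 0.70) for Hist1h1a and 0.10 (SE 0.73) for Hist1h1c.

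Between the lines, averaged over both duplexes, 8 of 41 histone genes passed the main test, which has no replicate block. How they split in direction depended on the settings given below. Hist1h2bp is left out of these counts, a choice made after seeing the data, since it was above background in 18-81 alone and so was tested only through the line where it reads high. The shares of all genes beside these counts keep genes above background in 1 line alone, so they follow an unlike filter. Higher in 18-81 were Hist1h2be, Hist2h2aa1, Hist2h2be and Hist1h1c, that is 4 members (9.76%), against 15.8% of all genes. Lower in 18-81 were Hist1h4i, Hist1h2ab, Hist1h1a and Hist1h3g, that is 4 members (9.76%), against 16.1% of all genes. With the replicate number as a block, 6 were higher (14.6%, against 24.7% of all genes) and 24 lower (58.5%, against 23.4%). The even split of the main test did not hold there. By size, over all 42 members, 6 were 2-fold higher (14.3%, against 12.2%) and 8 2-fold lower (19.0%, against 14.0%). Lines did not overlap for 4 higher (9.52%, against 18.8%) and 3 lower members (7.14%, against 18.1%), while 7 were higher (against 29.2%) and 20 lower (47.6%, against 26.5%) in all 4 replicate pairs. Each of these counts of higher members, by size, by overlap and by pairs, includes Hist1h2bp. The median of the members was −0.56, against 0.02 for all genes, and 34 of 42 lay below the median of all genes. Over the 41, the split moved with scaling: 3 higher and 6 lower after quantile normalization and in the authors' deposited series table, 4 and 6 with normexp background correction, and 5 and 4 with the array median. All genes had 18.9% higher and 17.2% lower calls after quantile normalization. The split over all genes moved too. Of all calls between the lines, 49.5% were higher in the main test and 52.3% after quantile normalization. This share was 51.7% with the authors' deposited values, 47.9% with normexp and 60.6% with the array median. Leaving out replicate 2 of 70Z/3 with miR-125b left 5 higher and 1 lower, and leaving out replicate 1 of that group gave 3 higher and 7 lower.

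Hist1h2be, an H2B gene, differed most. It read −2.02 and −4.50 with miR-Neg and −2.69 and −2.69 with miR-125b in 70Z/3, and 0.25, 0.46, 0.24 and 0.77 in 18-81. All 4 arrays of 18-81 were above all 4 of 70Z/3, and the difference was 3.41 (SE 0.49, limma adjusted p = 0.000943), or 10.6-fold. Without replicate 2 of 70Z/3 with miR-Neg, the array at −4.50, the log2 difference was 2.79 and still passed, and without replicate 1 of that group it was 4.03. Of the 70Z/3 arrays with miR-Neg, 1 of 2 was well above background for this probe. Hist2h2be, also H2B, read −2.78, −2.80, −3.04 and −1.64 in 70Z/3 and −1.07, −0.49, −1.15 and −0.72 in 18-81. The lines did not overlap, and the difference was 1.70 (SE 0.33, limma adjusted p = 0.00521). Hist1h1c, an H1 gene, read −0.93, 0.09, −1.09 and 0.13 in 70Z/3 and 0.97, 1.25, 0.75 and 1.54 in 18-81. The lines did not overlap, with a difference of 1.58 (SE 0.37, limma adjusted p = 0.0122). Hist2h2aa1 passed the test with overlap between the lines (1.99, SE 0.64, limma adjusted p = 0.0464). Hist1h2bp read −5.22, −5.72, −6.39 and −5.26 in 70Z/3, not well above background on any, and −4.70, −3.59, −4.44 and −3.45 in 18-81, above it on 3 of 4. It was at least 1.04-fold higher in 18-81, a bound near equality, and is given with no test.

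Among the lower genes, Hist1h4i read 2.70, 4.05, 1.93 and 3.22 in 70Z/3 and 0.88, 1.08, 0.70 and 1.68 in 18-81. The lines did not overlap, and the difference was −1.89 (SE 0.42, limma adjusted p = 0.0096), with −1.14 for its second probe. Hist1h1a read 3.47, 4.76, 2.51 and 3.41 in 70Z/3 and 2.32, 2.30, 2.39 and 1.79 in 18-81, a difference of −1.34 (SE 0.35, limma adjusted p = 0.0204) without overlap. Hist1h3g, whose probe holds the stem-loop, read 1.06, 2.07, 0.52 and 1.54 in 70Z/3 and −0.31, 0.33, −0.20 and 0.43 in 18-81. These arrays did not overlap either, and the difference was −1.24 (SE 0.35, limma adjusted p = 0.0287). Hist1h2ab differed by −1.35 (SE 0.33, limma adjusted p = 0.0145) with overlap.

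Over all members together, the gap between the lines was wider under miR-Neg than under miR-125b. Relative to all genes it was −0.81 and −1.06 in the 2 pairs under miR-Neg and −0.18 and −0.41 under miR-125b. In that order, H1 gave −1.20, −1.58, 0.14 and −0.03, and H2A −0.73, −0.94, −0.26 and −0.39. H3 gave −1.31, −1.33, −0.32 and −0.78, and H4 −1.16, −1.86, 0.14 and 0.28. H2B differed, at 0.24, 0.01, 0.70 and 0.75. For a single gene this contrast of duplexes is the interaction given above, which 0 members passed. With the arrays of miR-125b alone, the difference of Hist1h1e was 0.51, that of Hist1h3d 0.29 and that of Hist1h4k 0.33, against −0.43, −0.24 and −0.55 over both duplexes.

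The 8 members above the median of all genes between the lines were Hist1h1c, Hist1h2ae, Hist2h2aa1, Hist3h2a, Hist1h2bc, Hist1h2be, Hist1h2bp and Hist2h2be. Their probes held 35 to 45% G and C, and 0 of the 8 listed more than 1 gene. The probes of the other 34 members held 38.3 to 70.0%, and 12 listed more than 1 gene. For miR-125b in 70Z/3, the 8 members above the median of all genes had a median of 42.5% G and C and the 34 below it 55%. These splits were made after the values were seen, so they are descriptions with no test, and whether base composition or probe position plays a part was not tested.

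**Figure D3:**
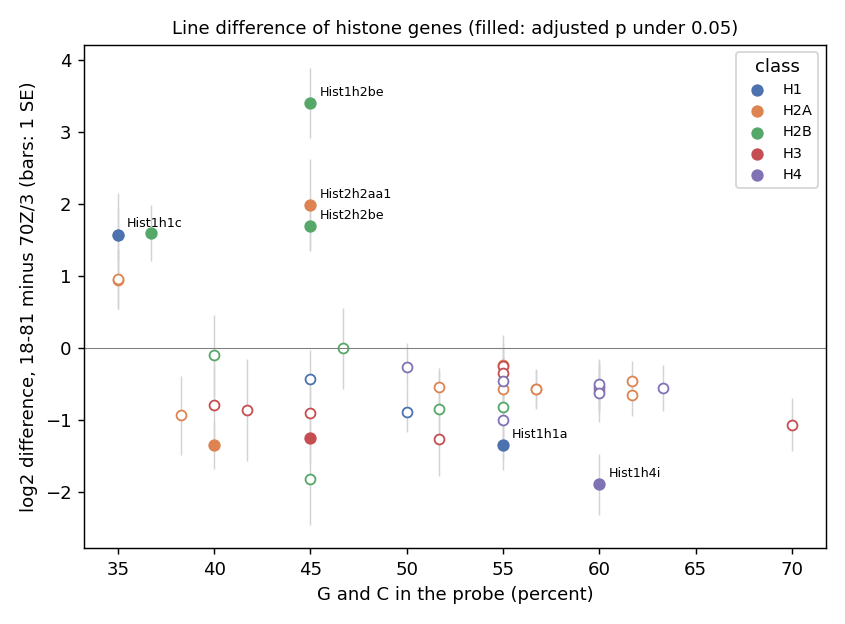
Log2 difference, 18-81 minus 70Z/3 over both duplexes (vertical, bars 1 SE), against the share of G and C in the probe (horizontal) for 42 histone genes by class; filled points passed an adjusted p of 0.05, Hist1h2bp among them, whose test is not used. The filled points higher in 18-81, Hist1h2bp included, have probes of 35 to 45% G and C. Of the lower genes that passed, Hist1h2ab and Hist1h3g lie in that range too, and Hist1h1a and Hist1h4i above it.

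Histone genes were higher in replicate 2 than in replicate 1 in nearly every group. Limma, with group means and replicate number, called 35 of 42 members higher (83.3%), against 19.6% of all genes, and 0 lower, against 6.1%. A 2-fold higher value was found in 13 members (31.0%, against 2.39%) and a 2-fold lower one in 0 (against 2.47%), and 40 of 42 lay above the median of all genes. The median was 0.83, against 0.20 for all genes. Within groups the median was 0.97 and 1.05 in 70Z/3 with miR-Neg and miR-125b, and 0.52 and 0.94 in 18-81. In all 4 groups 36 members were higher (85.7%, against 37.9% of all genes) and 1 lower (against 12.5%). The replicate number also follows the row of the slide, so experiment and position cannot be told apart. The number of calls depended on the scaling and the arrays: 16 after quantile normalization (38.1%, against 4.98% of all genes), 16 in the authors' deposited series table (38.1%, against 4.95%), 26 with the array median (61.9%, against 8.17%) and 38 with normexp (90.5%, against 30.5%). With replicates 1 and 2 compared within 1 line, 0 members passed in either line, as did 0 of all genes. Leaving out any 1 array lowered the number of calls, over all genes as well as over members. In this fit the partner of that array then tells nothing of the experiments, so both arrays of a group give the same result. The fall in calls can thus not be tied to single arrays. The median of the members relative to all genes stayed between 0.55 and 0.71.

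Hist1h3a read 0.29, −1.03, −1.01 and −1.18 in replicate 1 and 1.73, 1.53, 0.34 and 0.95 in replicate 2, in the order 70Z/3 with miR-Neg, 70Z/3 with miR-125b, 18-81 with miR-Neg and 18-81 with miR-125b. Every replicate 2 array was above every replicate 1 array, and the difference was 1.87 (SE 0.23, limma adjusted p = 0.0269). Hist1h2bb, an H2B gene, differed by 1.65 (SE 0.22), Hist2h2aa1 by 1.61 (SE 0.27) and Hist1h2bc by 1.52 (SE 0.17), each with a limma adjusted p = 0.0269. Hist1h2bg and Hist2h2bb both differed by 1.46, Hist2h3c2-ps by 1.43, Hist1h4c by 1.40 and Hist2h2ab by 1.37. The brightest members gave 0.58 for Hist1h1b, 0.62 for Hist1h2ah, 1.51 for Hist1h2bm, 0.75 for Hist1h3d and 0.66 for Hist1h4k. In H1, Hist1h1e gave 0.93, Hist1h1c 0.83 and Hist1h1a 0.39, the last without passing the test (SE 0.33). Hist1h4h (−0.67, SE 0.22) and Hist1h2be (−0.44, SE 0.50) lay on the other side and did not pass the test.

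**Figure D4:**
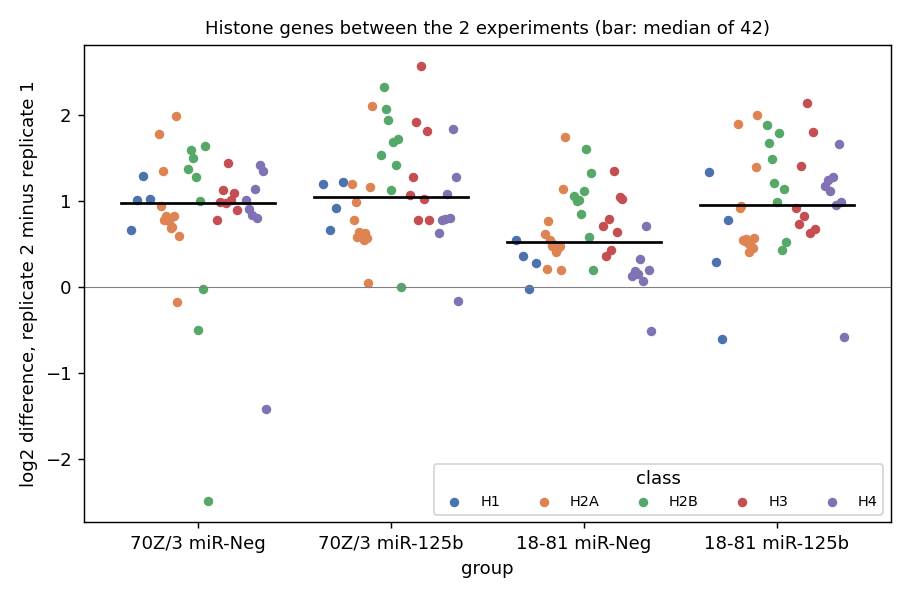
Log2 difference, replicate 2 minus replicate 1, of the 42 tested histone genes in each of the 4 groups, coloured by class, with black bars at the medians. The medians are 0.97, 1.05, 0.52 and 0.94, all above 0, and the largest decrease is that of Hist1h2be in 70Z/3 with miR-Neg.

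Of 25 S-phase genes tested, 22 lay below the median of all genes with miR-125b in 70Z/3, with a median of −0.47 relative to it (−0.19 and −0.63 in the pairs). Of 10 replication-independent variants 8 lay below it (−0.26), of 25 genes of histone transcription and 3′ processing 22 (−0.22), and of 25 chaperone and import genes 15 (−0.08). In each of these 4 lists 0 genes passed, and the lists were chosen with results of these arrays known. Slbp, which binds the stem-loop, differed by −0.45 (SE 0.38). Casp8ap2, a cofactor of histone transcription, differed by −0.19 (SE 0.31) there and was higher in 18-81 than in 70Z/3 by 1.10 (SE 0.22, limma adjusted p = 0.00576). Asf1b, a chaperone of H3 and H4, differed by −0.68 (SE 0.28) with miR-125b in 70Z/3 and Chaf1b by −0.35 (SE 0.30). The difference of Chaf1b, of the assembly factor CAF-1, between 18-81 and 70Z/3 was −0.77 (SE 0.21, limma adjusted p = 0.0242). Among variants made throughout the cycle, H2az1 (H2afz in the file) differed by −0.74 (SE 0.41) and H3f3b by −0.75 (SE 0.35) with miR-125b in 70Z/3, while H2ax (H2afx) gave 0.12 (SE 0.48). H2ax was higher in 18-81 by 1.69 (SE 0.34, limma adjusted p = 0.00597).

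Between the lines, 5 of 25 genes of the transcription and processing list were higher in 18-81 and 1 lower, against 15.8 and 16.1% of all genes. Beside Casp8ap2 they were Mbd2 at 1.18, Cstf2t, of the cleavage machinery, at 1.82, Zfp473, which binds the Slbp complex, at 1.33 and Hinfp, an activator of H4 genes, at 0.82. Nfyc, a subunit of the CCAAT-binding factor NF-Y, was at −0.87. In the chaperone list 3 were higher, Anp32e at 0.91, Atrx at 0.83 and Supt16 at 0.71, and 2 lower, Chaf1b and Mcm2, the latter at −0.95. In the S-phase list 0 were higher and 2 lower, Mcm3 of the replicative helicase at −1.19 and Pola1 of polymerase alpha at −0.64.

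Between the experiments, where limma called 19.6% of all genes higher and 6.1% lower, the median of the S-phase list was 0.07 above that of all genes. It had 5 genes (20%) higher in replicate 2, among them Fen1 at 0.68, Mcm6 at 0.67, Pcna at 0.58 and Rrm1 at 0.58, and 3 (12%) lower, among them Cdc45 at −0.69 and Tyms at −0.50. Of the variants 5 of 10 (50%) were higher and 0 lower, led by H3f3a at 0.78 and H2ax at 0.77, with H2az2 at 0.72, H2aj at 0.59 and H2az1 at 0.59. In the transcription and processing list 4 (16%) were higher and 3 (12%) lower, among them Cstf2t at 1.01, Zfp473 at 0.75, Pou2f1, which binds the octamer, at 0.70, Nfya at −1.07, Cdk2 at −1.02 and Srrt at −1.15. In the chaperone list 5 (20%) were higher and 4 (16%) lower, among them Rbbp7 at 0.77, Nap1l1 at 0.62, Npm1 at 0.54, Mms22l at 0.49, Hira at −0.78 and Nap1l4 at −0.89.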

How the data were processed

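The authors' deposited scanner files hold 1-colour intensity values of 8 arrays on 1 slide, extracted with Agilent Feature Extraction 10.7.3.1 and background-subtracted by that software, per the file headers. The deposited series table holds linear intensity and served as an alternative; how the authors normalized it is not stated in the labels or headers. Per the labels, 0.2 µg of RNA with an integrity number of 9 was labelled with Cy3. Control and outlier-flagged spots were left out, the rest were scaled to the array's 75th percentile on the log2 scale, and the brightest probe stood for a gene. Probe positions are in mm9 per the file headers, and names follow RefSeq GRCm38.p6.

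limma 3.58.1 in R 4.3.3 fitted 4 group means to 18777 genes on 8 arrays, with Benjamini-Hochberg adjustment at 0.05. The fit was tested on simulated data that drew each array independently, without the shared deviation of replicates described next. Replicates of the same number deviated together (r 0.37 to 0.65 over the pairs of groups, which the design text ties to 2 independent experiments), so numbers were taken to pair samples. The labels do not say how the cultures of a group were separated, so p-values measure the spread between these arrays. For duplexes and lines the main fit has no term for the pairing, so this spread includes that between experiments. Members and gene lists were chosen with earlier results of these data known. Named were the brightest member of each class, every H1 member, members past the threshold without overlap, filled by p to 3 per direction, and list genes past the threshold, in part. The searches for the stem-loop, the poly(A) hexamer and the seed match, the split by G and C, and the sequences printed were chosen after values were seen. Alternatives covered background, normalization, scaling, filters, probe level, spread, the replicate block and each array left out.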

Additional observations from a re-analysis of the deposited data

Results flagged for a closer look

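In class H1, the effect of miR-125b relative to all genes was −1.01 and −1.08 in the 2 pairs of 70Z/3 and 0.01 and 0.14 in the 2 pairs of 18-81. In class H2A it was −0.46 and −0.53 in 70Z/3 and 0.02 and 0.07 in 18-81. Both classes stand here because every pair of one line moved one way and every pair of the other the opposite way. The values in 18-81 are near 0, and without replicate 2 of 18-81 with miR-125b they were −0.08 for H1 and −0.14 for H2A, the same sign as in 70Z/3. The difference of the class medians was not tested; single members were, with 0 past the adjusted threshold.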

How the results depend on the processing

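Ranges over the 8 fits that leave out 1 array each come first. Outside the comparison of experiments these fits had no replicate block, so a group with 1 array left held 1 experiment. The cause of the moves was not tested. For miR-125b in 70Z/3 the genes called numbered 0 to 2 (2 without replicate 2 of miR-Neg) and the histone median lay at −1.22 to −0.20 relative to all genes. Single members ranged from −0.68 to 0.55 (Hist1h1c), −0.67 to 1.80 (Hist1h2be), −2.02 to 0.04 (Hist1h2bm), −0.24 to 1.18 (Hist1h4h) and −0.25 to 1.15 (Hist2h2be). In 18-81 the calls numbered 0 to 9 and the histone median lay at −0.19 to 0.54. Members ranged from −0.52 to 0.08 (Hist1h1a), −0.06 to 0.30 (Hist1h1b), −0.36 to 0.43 (Hist1h1c), −0.24 to 1.09 (Hist1h1e), 0.00 to 0.92 (Hist1h2ab), −0.26 to 0.27 (Hist1h2ah), −0.52 to 0.95 (Hist1h2bm), −0.70 to 0.32 (Hist1h3c), −0.23 to 0.59 (Hist1h3d), −0.05 to 1.23 (Hist1h4j), −0.07 to 0.88 (Hist1h4k) and −1.38 to 0.41 (Hist2h3c2-ps). For the difference of the effects the calls numbered 0 to 5, the histone median lay at 0.27 to 1.18, and members ranged from −0.51 to 0.71 (Hist1h1c), −1.11 to 0.31 (Hist1h4h), −1.31 to 0.10 (Hist2h2be) and −1.27 to 0.12 (Hist3h2a). Between the lines, Hist1h2bp included, 3 to 7 members were higher and 1 to 7 lower, and Hist1h3d ranged from −0.48 to 0.00. Between the experiments 0 to 2986 genes and 0 to 16 members were called, and Hist1h2be ranged from −0.76 to 0.24.

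With normexp 1 gene, not a histone, was called for miR-125b in 70Z/3, Hist1h2be stood at −0.14 there, the histone median for the difference of effects was 0.59 (Hist1h4h at 0.03), and Hist1h2be between experiments was 0.03. Quantile normalization gave 0.62 for that median, 1969 calls and 16 members between experiments, and −0.01 for Hist1h2ah in 18-81. The series table gave 0.61, 1981 and 16, with Hist1h2ah at −0.06 in 18-81 and −0.05 for the difference of effects. Array median scaling gave 2750 calls between experiments, 0.00 for Hist1h2ah in 18-81, and for Hist1h1c 0.06 in 70Z/3 and −0.03 for the difference of effects. With no intensity filter, which adds dim genes, the histone median was −0.30 in 70Z/3 and 0.51 for the difference of effects, with 12241 calls between experiments. Requiring signal on all 8 arrays, which tests fewer genes, gave 0.78, and between lines 3536 calls with 3 members higher. Without near-saturation members, chosen after seeing the data, that median was 0.84. The replicate block, which pairs same-numbered arrays, gave 9035 calls and 24 lower members between lines, and within each line 1 call for miR-125b in 70Z/3. With miR-Neg arrays alone 2 members were higher between lines. With miR-125b arrays alone 2 were higher and 0 lower, with Hist1h1e at 0.51, Hist1h3d at 0.29 and Hist1h4k at 0.33. Within 70Z/3 alone 0 genes and 0 members were called between experiments, and within 18-81 0 and 0, with Hist1h1a at −0.31 and Hist1h2be at 0.36 there. Counted over every pairing of a single gene or list with a setting, 1514 values kept their direction and side of the threshold or their size, 111 moved by more than the spread, 175 no longer passed the threshold, 10 newly passed it and 50 changed sign.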
